A study of Xenopus laevis with 6 samples.

Results

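The integrin alpha and beta subunits of *Xenopus laevis* were examined in explants of gastrula neuroectoderm. The members were all rows of the authors' deposited table whose name begins with itga or itgb, leaving out itgb1bp2.L, which encodes a binding protein, and both itgbl1 rows. This rule gave 34 of 42549 rows, namely 22 alpha rows of 15 symbols and 12 beta rows of 8 symbols. Each of the 34 names matched a symbol in RefSeq's annotation of the v10.1 assembly, where 34 symbols fit the same rule. The study sequenced poly(A) RNA of 3 control and 3 stretched samples of wild-type explants, labelled as stage 11.5 of Nieuwkoop and Faber. In both groups, explants were joined in pairs by their inner sides and pinned to agarose with glass needles for 3 h. For the stretched group the pair was also drawn out over this time. By the paper's methods, explants were cut at about the labelled stage, and both groups were lysed after the 3 h. The explants are small pieces cut by hand, and the study itself states that no explant can be cut exactly like another.

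Integrins are receptors for the extracellular matrix, each made of 1 alpha and 1 beta subunit. The pairing of the subunits sets the ligand, which may be fibronectin, laminin, collagen or another matrix protein. Inside the cell the short tails bind talin, kindlin and other adaptors that link the receptor to actin, so that integrins carry force in both directions. In the frog gastrula, the fibronectin receptor formed by alpha 5 and beta 1 is known for building the fibronectin fibrils over which the mesoderm moves.

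What the deposited table gives for each row outside the authors' own comparison is 1 number, the average log2 CPM (counts per 1000000 counted reads, on a log2 scale) over the samples. Columns that compare stretched with control explants hold the authors' own statistics and were not used, so how the integrins differed between the groups was not analysed here. The average has no spread between replicates, and no test was run on it. It can, however, be turned back into reads. The lowest average log2 CPM of the deposited column, -2.08, is shared by 12476 rows and is what a row without any read receives. The values just above it lie at whole steps, each of them 1/12 of the lowest value on the linear scale, and the first step holds 6 distinct values, as many as there are libraries. Within 0.05 reads, 100% of the 3009 rows with 4 to 10 reads came out whole, as did 97.3% of the 2953 rows with 11 to 30 reads and 42.5% of the 3394 rows with 31 to 100 reads. Sums above about 30 reads are therefore approximate, which includes those of all detected rows. One read was therefore worth 0.0197 CPM, and the 6 libraries together held 50.7 M reads counted for genes, a mean of 8.45 M for each library. The paper's methods give a higher number for each sample, of reads generated rather than counted for genes. The gap between these numbers was not examined.

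Below, "reads" means the reads of a row summed over the 6 libraries at their mean depth, and each interval is the exact 95% Poisson interval of that sum. These intervals cover counting error alone and not the error of recovering a sum, which in simulated data above 100 reads had a median of 1.31% and a 95th percentile of 3.98%. They also leave out other errors, since reads amplified by PCR are not independent molecules and the spread between samples is unknown. The same limits hold for the exact binomial intervals of shares given below. The simulation set its own library sizes and spread between libraries, so the error of the real sums may differ from the simulated one. A row counted as detected when its average log2 CPM was above 0, which takes 39 reads. Transcript lengths were not used here, so a sum of reads is given as such, and an order of reads is not an order of transcript numbers. In RNA of whole explants, fewer cells of a type and less RNA per cell cannot be told apart.

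A small set of integrin genes held most of the family's reads. Of the 34 integrin rows, 17 (50%) were detected, against 44.4% of all rows. Detection was 8 of 22 among alpha rows and 9 of 12 among beta rows. Together the integrin rows held 30900 reads, 10738 of them alpha and 20162 beta. Their median was 36.5 reads beside 16 for all rows. Of the 34 rows, 6 were above 1000 reads, 11 were at 1 to 10 reads and 1 was without any. Of all 42549 rows, 7728 were above 1000 reads, 7597 were at 1 to 10 and 12476 were without any. The share above 1000 reads was thus about the same in both.

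**Figure D1:**
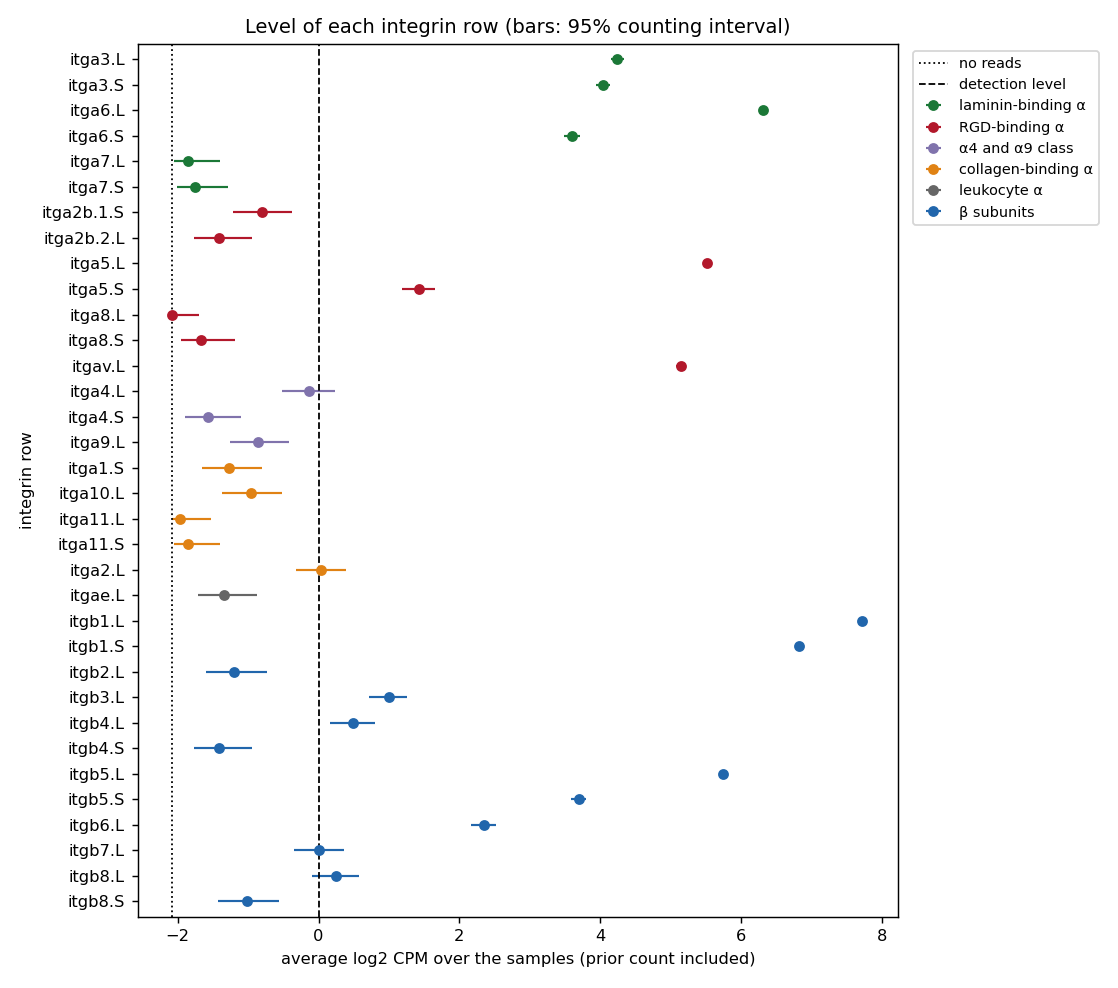
Average log2 CPM of the authors' deposited table (x axis) for each of the 34 integrin rows (y axis), coloured by class. Bars are exact 95% Poisson intervals of the reads, the dotted line is the value of a row without reads (-2.08) and the dashed line the detection level of 0. Rows of itga3, itga5, itga6, itgav, itgb1, itgb5 and itgb6 stand to the right of the others, and itga8.L lies on the dotted line.

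Among the alpha subunits, 4 genes held 98.5% of the reads when homeologs were summed. (Homeologs are the copies of a gene on the L and S subgenomes of this allotetraploid frog.) These genes were itga6, itga5, itgav and itga3, which encode 2 subunits of laminin receptors and 2 that bind the Arg-Gly-Asp (RGD) motif of matrix proteins. itga6 came to 4594 reads (interval 4462 to 4729), or 42.8% of all alpha reads (exact binomial interval 41.8 to 43.7%). itga5 followed with 2436 reads (2340 to 2535) and 22.7% of the alpha reads. itgav, represented by the single row itgav.L, had 1778 reads (1696 to 1863), and itga3 had 1768 (1687 to 1852). The intervals of itgav and itga3 overlap almost wholly, so that the order of these neighbours cannot be given, whereas those of itga6, itga5 and itgav do not meet.

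The laminin-binding class took 59.3% of the alpha reads, and 4 of its 6 rows were detected. The alpha 6 subunit, which pairs with beta 1 or with beta 4 of hemidesmosomes, had an average log2 CPM of 6.30 for itga6.L and 3.60 for itga6.S in the authors' deposited table. The alpha 3 subunit, which pairs with beta 1 and is typical of epithelia, stood at 4.24 for itga3.L (945 reads) and 4.04 for itga3.S (823 reads). By contrast, itga7, the laminin receptor subunit typical of muscle in vertebrates, was near the lowest value, with 2 reads for itga7.L and 3 for itga7.S.

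Of the alpha reads, 39.5% belonged to the RGD-binding class, in which 3 of 7 rows were detected. itga5.L, for the fibronectin receptor, had an average log2 CPM of 5.52 (2312 reads), and itga5.S of 1.42 (124 reads). itgav.L, whose product pairs with beta 1, 3, 5, 6 or 8 in vertebrates, stood at 5.14. The others were low. itga8, which in the mouse kidney binds nephronectin, had 0 reads for itga8.L and 4 for itga8.S. A count of 0 allows up to 3 reads or 0.0592 CPM by a one-sided limit, and the upper end of the exact interval is 3.69 reads. The rows of the platelet subunit alpha IIb, itga2b.1.S and itga2b.2.L, had 17 and 7 reads.

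In the remaining alpha classes only itga2.L was detected. Collagen-binding subunits held 0.615% of the alpha reads over 5 rows. itga2.L had 40 reads (29 to 54) and itga10.L 14, while itga1.S had 9, itga11.L 1 and itga11.S 2. With an average log2 CPM of 0.04, itga2.L lies so close to the detection level that its interval spans it. itga4, whose product binds fibronectin and VCAM-1 and is typical of migrating and blood cells, had 34 reads for itga4.L and 5 for itga4.S. itga9.L, for a subunit that binds tenascin among other ligands, had 16 reads. The single row of the leukocyte class, itgae.L, had 8 reads.

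The beta reads were held mostly by 1 gene. itgb1, the common partner of most alpha subunits, had 16315 reads (16066 to 16567), or 80.9% of all beta reads (80.4 to 81.5%). In the authors' deposited table itgb1.L had an average log2 CPM of 7.71, and 98.2% of all rows had fewer reads. itgb1.S stood at 6.82 with 5698 reads. The partner of alpha v in a vitronectin receptor, itgb5, was next with 3336 reads (3224 to 3451) and 16.5% of the beta reads. Both genes together made up 97.5%.

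The other beta genes shared the rest. itgb6.L, which in mammals is an epithelial partner of alpha v that activates TGF-beta, had 246 reads (216 to 279) and an average log2 CPM of 2.35. itgb3.L, for the beta subunit of the platelet and vitronectin receptors, had 89 reads (71 to 110). The hemidesmosome subunit had 59 reads for itgb4.L and 7 for itgb4.S, and itgb8, another partner of alpha v, had 48 for itgb8.L and 13 for itgb8.S. Summed over homeologs, the intervals of itgb3 (71 to 110), itgb4 (51 to 84) and itgb8 (47 to 78) overlap, so no order can be given among them. itgb7.L, the partner of alpha 4 and alpha E in lymphocytes, had 39 reads (28 to 53), and itgb2.L, the beta subunit of leukocytes, had 10 (4.8 to 18.4). The interval of itgb7 overlaps those of itgb4 and itgb8, so its order beside them cannot be given either, but it does not meet that of itgb3. The intervals of itgb7.L and itgb8.L span the detection level, as that of itga4.L does.

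**Figure D2:**
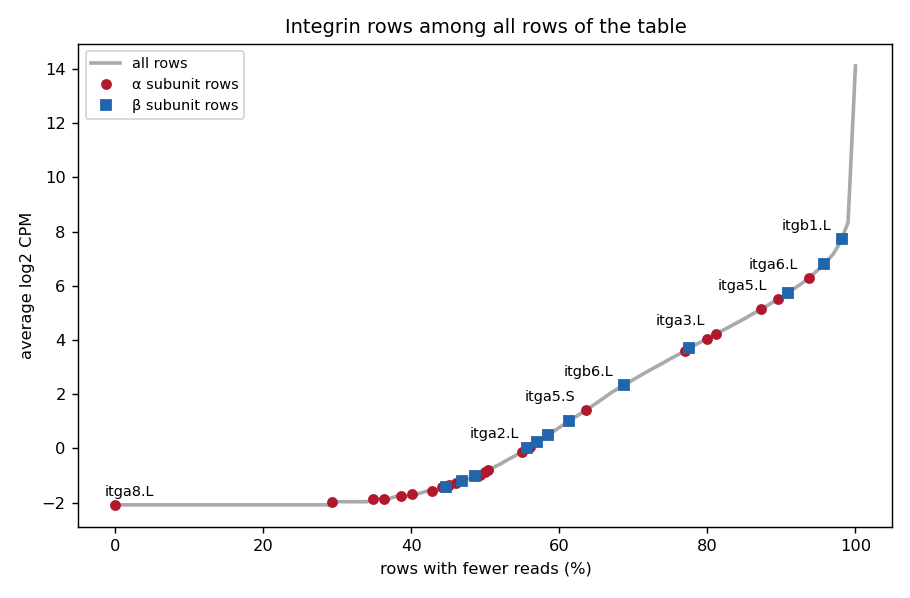
The average log2 CPM of the authors' deposited table (y axis) against the percentage of the 42549 rows with fewer reads (x axis), with all rows as a grey line, alpha rows as circles and beta rows as squares. itgb1.L lies at 98.2% and itga6.L at 93.7%, and the 17 rows that were not detected lie at 54.9% or below.

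Set by known partnerships, the reads were unequal between the subunits of several receptors. itga6 had 4594 reads beside 66 for itgb4, the partner it has in hemidesmosomes, and 16315 for itgb1. For the partners of alpha v other than beta 1, the reads were 3336 for itgb5, 246 for itgb6, 89 for itgb3 and 61 for itgb8, beside 1778 for itgav itself. itga2b and itgb3 form the platelet fibrinogen receptor, and their rows had 17, 7 and 89 reads. itgae and itga4 had 8 and 39 reads summed over homeologs, beside 39 for itgb7, the partner they share in lymphocytes. These are reads not divided by transcript length and say nothing of the proteins.

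Homeolog rows could be set side by side for 11 of the 23 symbols, and 12 symbols had 1 row only. In 7 of these 11 pairs at least 1 row was detected, against 5875 of 7768 pairs over all rows. The .L row had more reads than the .S row in 7 of these 7 pairs, while the same held for 57.1% of the 5875 such pairs over all rows. The difference was greatest in itga5, with 2312 reads for itga5.L against 124 for itga5.S, a ratio of 18.6, so that the .L row took 94.9% of the pair's reads (exact binomial interval 94.0 to 95.7%). In the authors' deposited table this is a difference of 4.10 in average log2 CPM, and 92.1% of the 5875 pairs differ by less. By this difference itga6 came next (2.70), with 3990 reads for itga6.L and 604 for itga6.S, a ratio of 6.61. In itgb5 the difference was 2.04, from 2692 reads for the .L row and 644 for the .S row.

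At the other end, the .L row of itga3 held 53.5% of the pair's reads (51.1 to 55.8%), close to equal, and that of itgb1 65.1% (64.3 to 65.8%). In pairs with few reads, the .L share was 89.4% for itgb4 (79.4 to 95.6%, 66 reads) and 78.7% for itgb8 (66.3 to 88.1%, 61 reads). The median difference between .L and .S over the 7 pairs was 1.90 in average log2 CPM, and the median absolute difference over the 5875 pairs was 1.27. Of the 4 pairs without a detected row, itga4 had an .L share of 87.2% (72.6 to 95.7%), and itga7, itga8 and itga11 had 5, 4 and 3 reads, too few to give a direction. Reads that match both homeologs can be counted for either or for neither, and the lengths of the copies were not compared, which limits all of these ratios.

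**Figure D3:**
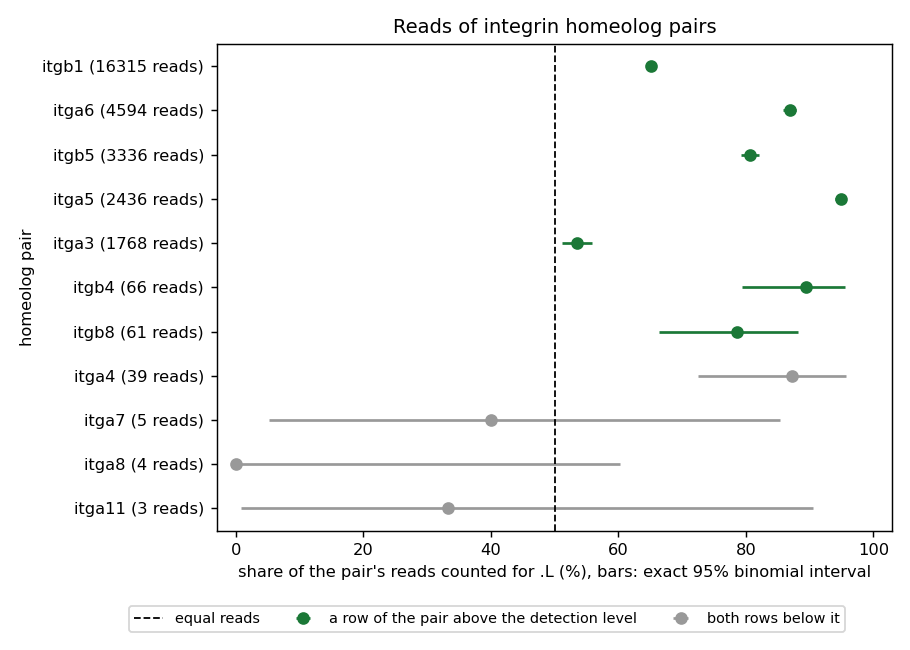
Share of a pair's reads counted for the .L row (x axis, percent) in the 11 integrin pairs with both homeologs (y axis, with the reads of the pair), bars being exact 95% binomial intervals and the dashed line equal reads. The 7 pairs with a detected row (green) lie to the right of the line, from 53.5% in itga3 to 94.9% in itga5.

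In the gene order of the RefSeq annotation, itga3 and itga2b lie close to each other in both subgenomes, with 3 protein-coding genes between itga3.L and itga2b.2.L and 2 between itga3.S and itga2b.1.S. Their reads were far apart, with 945 for itga3.L beside 7 for itga2b.2.L, and 823 for itga3.S beside 17 for itga2b.1.S. Whether this is unusual for neighbouring genes was not tested. The next closest members, itga5.L and itgb7.L, had 35 such genes between them.

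Ligands and adaptors of integrins were taken from 2 lists. Of 30 ligand symbols with a row, the most reads belonged to fibronectin, fn1.S, with 11846 reads, the basement membrane protein nidogen 2 (nid2) with 7659, and the laminin chains lamb1 (5620), lamc1 (4362) and lama5 (1926). In all, 20 of 50 ligand rows (40%) were detected, against 44.4% of all rows. The listed collagens had few reads, with 73 reads for col1a2, 67 for col4a1, 21 for col4a2, 7 for col2a1 and 3 for col1a1. The same was true of some other ligands, with 2 for vitronectin (vtn), 2 for tenascin C (tnc), 1 for vcam1, and 9 for tgfb1. Fibrinogen had 0 for fga, 6 for fgb and 3 for fgg. Of these collagens and other ligands, only the rows col1a2.L (70 reads) and col4a1.L (67) were above the detection level. Below it in every row were also lama3 (14 reads), lamb2 (14) and lama4 (1). Other listed ligands lay between these and lama5, among them nephronectin (npnt) with 370 reads, egfl6 with 337 and fbn3 with 255.

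Among adaptors, 40 of 49 rows (81.6%) were detected, against 44.4% of all rows, with a median of 751 reads. zyx, for the focal adhesion protein zyxin, had 11352 reads, and the actin cross-linkers actn4 and actn1 had 10417 and 6019. ptk2, which encodes focal adhesion kinase, had 5610 reads and lims1, for the PINCH adaptor of integrin-linked kinase, 5593. Kindlins, which bind beta tails, had 4005 reads for fermt2 and 575 for fermt1. Talin 2 had 1852 reads in tln2.S, vinculin 1056 in vcl.S and integrin-linked kinase 255 in ilk.S. Symbols with no row above the detection level were kank2 (43 reads), tgfb1i1 (42), dab2 (10) and parvg (6). List members without a row of that name were not analysed here, so their levels are not known. They were 4 of 34 ligands (lama1, lama2, tgfb3 and spp1) and 8 of 37 adaptors. These adaptors were tln1, fermt3, flna, lims2, itgb1bp1, sharpin, numb and hic5. Of these, hic5 is another name of tgfb1i1, whose 42 reads are given above, so it is not a further gene of unknown level.

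Markers of several tissues were listed, which do not measure how much of each tissue the explants held. The share detected over all rows, for comparison, was 44.4%. All 15 rows of 8 neural genes were detected, from 121 reads upwards, with 23432 for sox3, 2882 for sox2 and 472 for ncam1. Epidermal genes were detected in 13 of 14 rows, with 65724 reads for gata2, 58852 for grhl3, 49826 for krt12.5 and 432 for tp63. Their rows summed to 267430 reads beside 65942 for the neural rows, sums that depend on which genes were listed. Mesoderm genes were detected in 6 of 7 rows. The rows summed to 14432 reads, most of them from tbxt (8490) and foxa4 (5728), while myf5 had 125 and tbx6 89. The other 2 of the 6 listed mesoderm genes, chrd and noto, had no row of that name. By the paper's account, the explants included the marginal zone, where tbxt is expressed. The paper also reports more tbxt in stretched than in control explants by quantitative RT-PCR. The tbxt reads given here are summed over both groups. Endoderm genes were detected in 6 of 8 rows and summed to 627 reads. Of 15 rows of leukocyte and blood genes, 2 were detected, both of them coro1a rows (355 and 84 reads), and the summed reads were 490. Of the other listed genes, fli1 had 27 reads, spib 7, lcp1 5, tal1 5, gata1 4, ptprc 2 and cebpe 1. Beside these, itgb2.L had 10 reads, itgb7.L 39 and itgae.L 8. Vessel and platelet genes summed to 127 reads, with 49 for pecam1, 42 for kdr and 0 for gp9, beside 17 and 7 for the itga2b rows. The part of each of these tissues in the integrin reads was not tested.

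**Figure D4:**
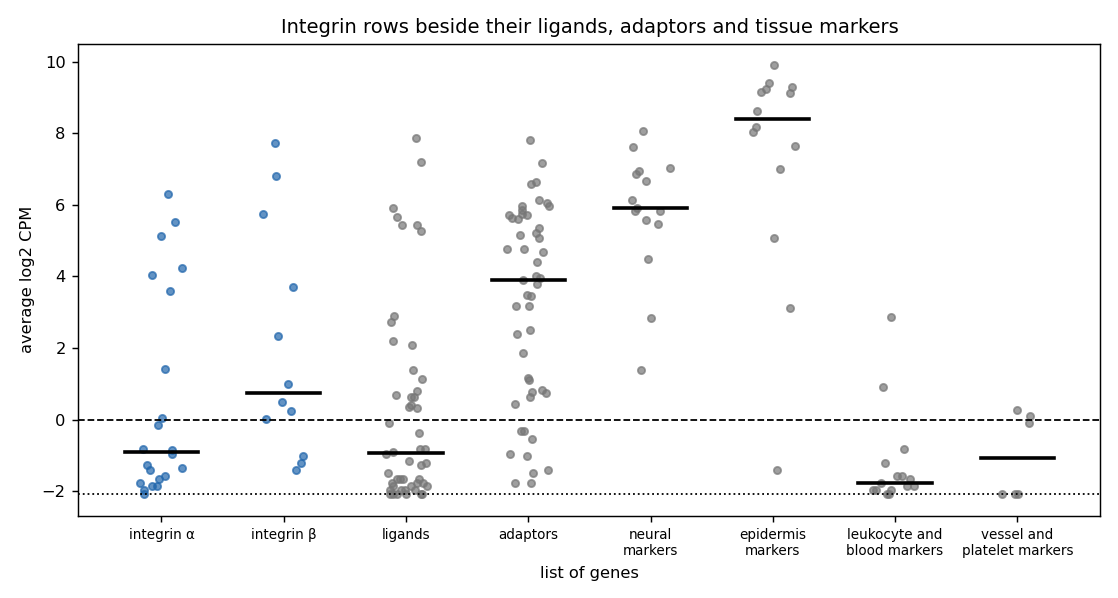
Average log2 CPM of the authors' deposited table (y axis) for the integrin rows and the rows of the lists (x axis), with horizontal bars at the medians. The mesoderm and endoderm markers are not drawn. The dashed line is at the detection level and the dotted line at the value of a row without reads. Alpha rows have a median of -0.91 and beta rows of 0.74, beside 3.91 for the adaptors, -0.94 for the ligands and -1.76 for leukocyte and blood genes.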

How the data were processed

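Poly(A) RNA of 3 control and 3 stretched samples was sequenced. STAR and DESeq2 stand in the paper's methods. TopHat2, HTSeq, DESeq and edgeR stand in the submitters' processing notes, without versions. The genome build is not given in the sources used here, nor is the annotation. The authors deposited 1 table, and its average log2 CPM column, over all samples with a prior count, was the unit used. The other 4 columns hold the authors' own comparison of stretched with control explants (fold change, F, p-value and FDR) and were not used. No column of single samples was used, and the planned edgeR test was therefore not run.

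Reads were taken as 12 times the excess of a linear CPM over the lowest value, relative to that value, 12 being the prior of 2 reads in 6 libraries, and were rounded. On simulated data, 100% of the totals of 606 genes with 1 to 10 reads were recovered to the nearest read, as were 77.8% for 571 genes with 11 to 100 reads and 4.88% for 1556 genes above 100 reads. For the last the median error was 1.31%, and 95% were within 3.98%. Library sizes and the spread between libraries were assumed in the simulation and are not known for the real samples. The prior of 2 reads in 6 libraries was built into the simulation as well, so the recovery cannot test that prior. Levels per coding length had been planned, but lengths were not used here, and the order by reads took their place. The detection level was an average log2 CPM of 0.

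The members and lists were chosen with earlier results of these data known. The genes described in full were the 6 alpha and 4 beta genes with the most reads, the 3 pairs that differed most, and, of each list, the 5 genes with the most reads and those below the detection level. Further genes were named after their values were seen, and 1 gene of the ligand list is not reported here. Python 3.11.15, numpy 2.4.6, pandas 2.3.3, scipy 1.17.1 and matplotlib 3.10.9 were used.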

Additional observations from a re-analysis of the deposited data

How the results depend on the processing

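The count of detected integrin rows, of 34, was 17 at an average log2 CPM above 0, 21 above -1 and 12 above 1. At least 1 read was held by 33 of them. Over all 42549 rows, 18871 (44.4%) lay above 0 and 30073 had at least 1 read. Of all rows, 48% lay at or below -1.08 and 49% at or below -0.963. Around the level of 1, 61% lay at or below 0.953 and 62% at or below 1.13. The integrin share was thus above that of all rows at 0 and -1, but below it at 1. The itgb1 share of the beta reads was 80.9%, 80.5% without subtracting the lowest value, and 76.9% with only the higher homeolog of each gene. The same settings gave 42.0% and 43.5% for the itga6 share of the alpha reads, beside 42.8%. The .L row had more reads than the .S row in 5 of 5 pairs, either with both rows above 0 or with 1 row above 1. The share over all pairs at these settings was not computed. Division by coding length, planned for the shares and the homeologs, was not run, nor was any fit of stretched against control explants. No paired analysis was possible because no values of single samples were used, and for the same reason no replicate could be left out. With 8.45 M reads a library on average, a row without reads is limited to 0.0592 CPM by the one-sided limit of 3 reads.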
